A study of Xenopus laevis with 14 samples.

Results

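The comparison described here is that of anterior endoderm explants given Ptf1a against explants given GFP alone, dissected from Xenopus laevis embryos at stage NF32 of the Nieuwkoop and Faber series. Its members are the 6 arrays that the labels place at NF32, 3 with GFP and 3 with GFP and Ptf1a, out of 14 arrays in the series. At the 8-cell stage both dorso-vegetal blastomeres received 400 pg of GFP mRNA, either alone or with 800 pg of Ptf1a mRNA. The controls therefore carry GFP as well, and the Ptf1a group received more mRNA in total. Each RNA sample pooled explants of about 15 embryos, of unstated strain and genotype, taken 8 hours after the embryo starts to express its own ptf1a. By the series text, the GFP and Ptf1a samples of a preparation came from the same batch of embryos. Samples of equal replicate number were taken as the same preparation, so the 3 numbers form 3 pairs. Injected mRNA is inherited by all descendants of the injected cells and is present before the gene's normal onset, whichever cell type those descendants form.

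Ptf1a is a basic helix-loop-helix transcription factor that acts in a trimer with an E-protein and Rbpj, the DNA-binding partner of Notch. It is needed for the exocrine pancreas and for inhibitory neurons of the hindbrain, spinal cord, cerebellum and retina. In the anterior endoderm, the source of pancreas, liver, stomach and duodenum, its own expression marks the pancreatic buds.

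All 22855 probe sets with values on the 6 arrays were tested. Of these, 12186 carried exactly 1 gene symbol and named 9260 genes, each given here by its probe set with the highest mean. Of 997 genes past the threshold 187 had further probe sets, which all passed in the same direction for 87 genes, in part for 27 and not at all for 73. A gene whose brightest probe set did not pass is counted as not passing, even where a dimmer one did. Among such genes, a dimmer probe set was lower for ambp.L, apoe.L, rbp4.L and epb41.L, and higher for sesn1.L, ccng1.S, dpysl4.L, vamp2.L and fn1.S. These are examples and not a full list, so the counts of the gene lists below leave out further such rises and falls. The suffixes .L and .S mark the long and short subgenome copies in this allotetraploid frog, and whether a probe set is specific to its copy was not tested. Values are linear intensities, array medians were 49.2 to 50.6, and replicates are always given in the order 1, 2, 3. Changes are differences of log2(intensity + 16), Ptf1a minus GFP, with limma's moderated SE. This SE draws the spread of a probe set over its 3 pairs toward a value shared by all probe sets. It can therefore be smaller than the plain SE over pairs where the pairs differ widely, and larger where they are nearly equal. Because of the offset of 16, changes of dim probe sets are understated. A gene is said to have risen or fallen when its Benjamini-Hochberg adjusted p over all probe sets was under 0.05 in limma's paired test. The p-values rest on this moderated spread between 3 pairs of pooled samples, not on the spread of each probe set alone.

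The explants were checked against markers of the cell types that the dissection could hold. Of 9 measured endoderm markers, 7 lay above the array median in both groups, and pdx1 was not analysed here. With Ptf1a 6 of the 9 fell and 0 rose, with a median log2 change of -0.41. The summed endoderm markers ranged from 2493.8 to 2615.1 with GFP and from 2095.6 to 2357.5 with Ptf1a. These sums include the bright epcam.S and epcam.L, which did not pass. Their means were 731.0 and 367.5 with GFP, and 812.8 and 400.3 with Ptf1a. Other cell types were present too. Of 9 epidermis markers 7 lay above the array median, as did all 6 granulocyte, 6 of 7 heart and 4 of 7 erythroid markers in the GFP group, against 7, 1, 3 and 0 of them in the Ptf1a group. In such mixed tissue, more cells of a type and more RNA per cell cannot be told apart.

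Across the arrays 2107 of 22855 probe sets passed the threshold, which is 9.22% of those tested. Of these 1149 were higher (5.03%) and 958 lower (4.19%) with Ptf1a. All 2107 had the same sign in all 3 pairs, and the groups did not overlap for 1856 of them. These probe sets were chosen by a paired test on the same 3 pairs, so both counts are largely built in. They are not separate evidence, and the share with the same sign over all probe sets is not given here. Over all genes, 23.1% had groups that did not overlap, a share of genes and not of probe sets. At least 2-fold changes made up 161 of the rises and 128 of the falls. Taken as genes, 997 of 9260 passed (10.8%), 5.35% higher and 5.42% lower, and the median log2 change over all genes was -0.02. These shares are the background for every gene list below. In limma's paired test 5972 of the 22855 probe sets had an unadjusted p under 0.05. That share of probe sets is the background for counts of unadjusted p below. Some genes belong to several lists, so the counts of different lists are not independent. Without the pair term 723 probe sets passed, all of them among the 2107, and 532 passed in each of the 3 fits that left out a pair.

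The injected gene was read first, as a check of the labels. The ptf1a probe set read 18.3, 14.9 and 7.7 on the GFP arrays and 209.5, 386.0 and 347.1 on the Ptf1a arrays. Every Ptf1a array lay far above every GFP array, and the log2 change was 3.45 ± 0.23, adjusted p = 0.0017. No source used here says whether this probe set detects the injected message, the endogenous one or both. The genes of its partners did not pass, with log2 changes of 0.05 for rbpj.S, 0.03 for tcf3.L and 0.13 for tcf12.S (adjusted p = 0.687, 0.775 and 0.357). Of the 13 measured genes of the trimer and the inhibitory neuron programme, 5 rose, ptf1a among them, and 0 fell. The adhesion gene kirrel2.L, a direct Ptf1a target in the mouse neural tube, went from 41.8, 24.2 and 32.5 with GFP to 73.1, 65.8 and 62.2 with Ptf1a (log2 change 0.78 ± 0.09, adjusted p = 0.00914). The inhibitory interneuron factor lhx1.L rose by 0.46 ± 0.07 on the log2 scale, and adjusted p = 0.0891 and 0.07 without pairs 1 and 2 in turn. Its other probe sets did not pass (0.26 and 0.08). Genes that make and load the inhibitory transmitter GABA stayed dim. The vesicular transporter slc32a1.S read 1.7, 1.8 and 1.0 on the GFP arrays and 7.8, 6.7 and 6.7 on the Ptf1a arrays (0.40 ± 0.06, adjusted p = 0.119 and 0.061 without pairs 1 and 2 in turn), and the synthesis enzyme gad1.1.L reached at most 7.0 (0.35 ± 0.07, adjusted p = 0.209 and 0.147 without pairs 1 and 2 in turn).

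**Figure D1:**
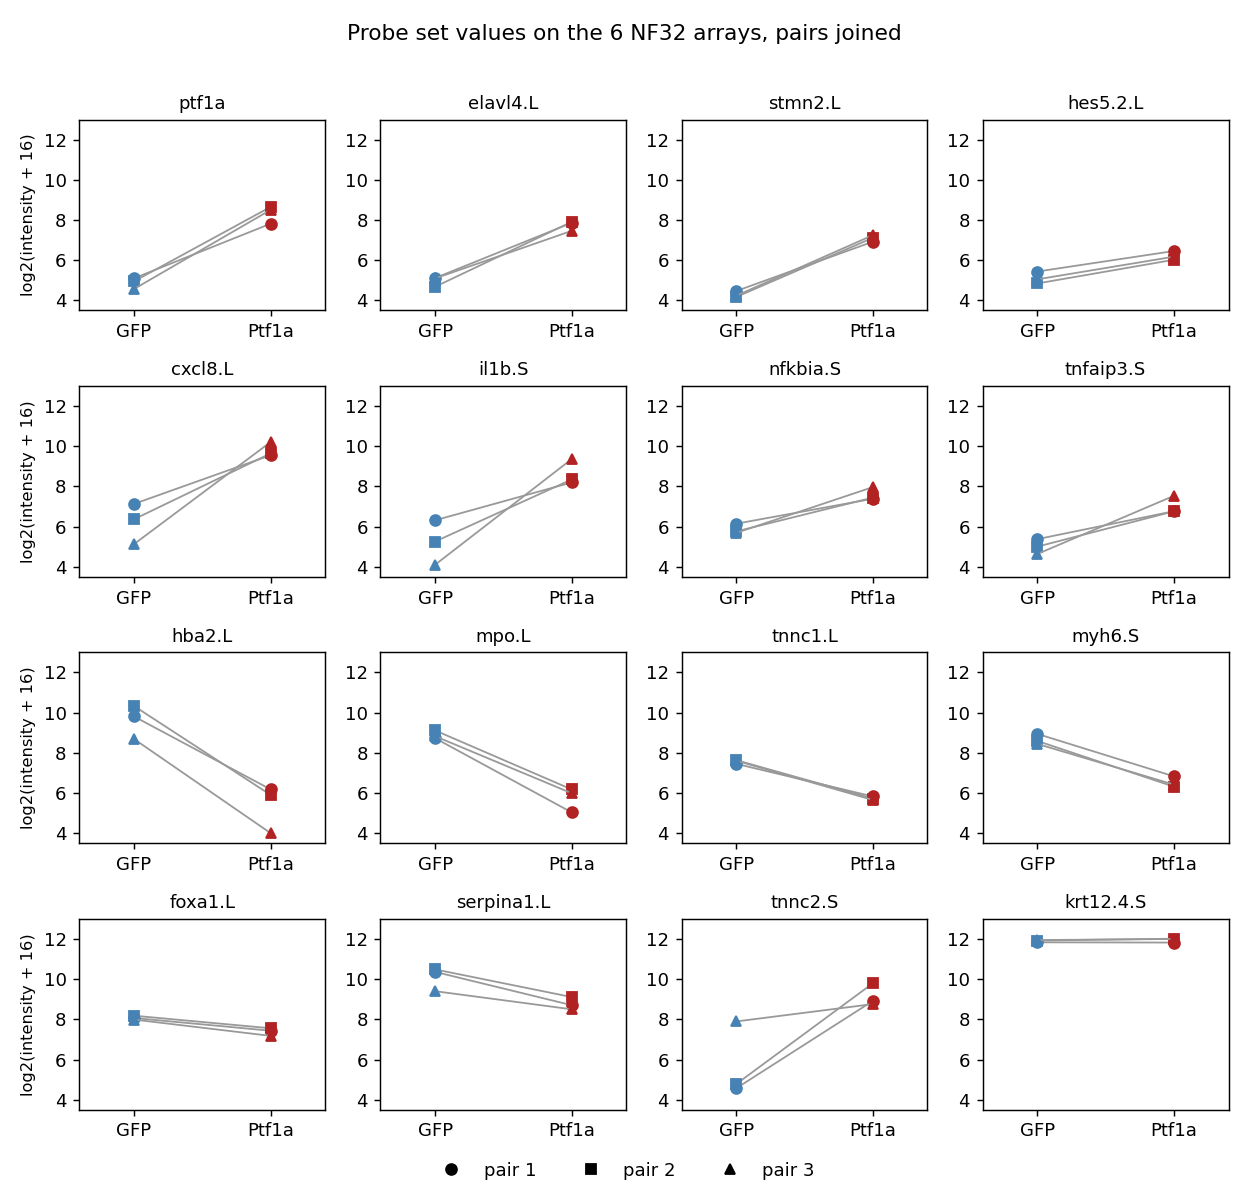
Each panel plots 1 gene: the vertical axis is log2(intensity + 16), the horizontal axis the group, each point is 1 array, and a line joins the GFP and Ptf1a arrays of a pair. Neuronal genes and hes5.2.L rise in parallel, cxcl8.L and il1b.S start from GFP levels that spread widely, globin, granulocyte and heart genes fall, tnnc2.S is already high on GFP array 3, and the keratin krt12.4.S stays level.

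Neuronal genes rose together in the Ptf1a explants. In the list of neuronal cytoskeleton and RNA-binding protein genes, 25 of 34 measured members rose and 0 fell, with a median log2 change of 0.84, and 19 of the 25 passed in each of the 3 fits leaving out 1 pair. The growth cone gene stmn2.L, whose protein destabilises microtubules, read 6.1, 2.0 and 2.8 on the GFP arrays and 105.1, 122.3 and 135.6 on the Ptf1a arrays. This probe set was near the floor of the arrays in all GFP samples and clear of it in all Ptf1a samples (log2 change 2.80 ± 0.12, adjusted p = 0.000623). A dimmer probe set of stmn2.L did not pass (15.8 with GFP and 16.9 with Ptf1a, log2 change 0.05, adjusted p = 0.778). The gene elavl4.L, which encodes the RNA-binding protein HuD of neurons, went from 18.6, 9.6 and 18.2 with GFP to 216.1, 224.5 and 160.2 with Ptf1a (2.78 ± 0.16, adjusted p = 0.00117), and the neuronal tubulin gene tubb3.L went from 29.2, 13.8 and 22.8 with GFP to 166.5, 198.8 and 202.2 with Ptf1a (2.45 ± 0.15, adjusted p = 0.00149). The groups were well apart in each of these genes. Both copies of peripherin, an intermediate filament of peripheral and motor neurons, rose. Its copy prph.S read 44.6, 28.6 and 34.2 on the GFP arrays and 453.5, 577.2 and 330.3 on the Ptf1a arrays (log2 change 3.16 ± 0.18, adjusted p = 0.00117), and prph.L rose by 2.39 ± 0.10. Both copies of dpysl3, which acts in axon outgrowth, rose by similar amounts (2.22 ± 0.10 for .L and 2.26 ± 0.13 for .S). Among members outside the largest changes, the growth cone gene gap43.S rose by 1.39 ± 0.12, the neurofilament gene nefm.L by 1.25 ± 0.15, the splicing regulator gene nova1.L by 1.65 ± 0.10 and the bright tubulin gene tubb2b.S by 1.11 ± 0.07. All the genes named in this group passed in every fit that left out a pair.

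The machinery of vesicle release rose in part. Of 32 measured members 14 rose and 1 fell, with a median log2 change of 0.29. The SNARE gene snap25.L read 4.8, 3.4 and 2.7 on the GFP arrays and 63.2, 52.5 and 39.9 on the Ptf1a arrays, a clear separation from the floor (log2 change 1.78 ± 0.09, adjusted p = 0.000721). Its other copy snap25.S, which was already measurable in GFP explants, did not pass with its brighter probe set (mean intensity 36.6 against 41.8, adjusted p = 0.292), whereas a dimmer one rose (2.97 against 9.97, log2 change 0.45, adjusted p = 0.0317). The calcium sensor syt1.L did not pass (146.1 against 146.8, adjusted p = 0.962). The vesicle genes syt4.L (1.63 ± 0.15), syp.L (1.00 ± 0.09), sncg.S (1.32 ± 0.10) and the endocytosis gene amph.L (1.61 ± 0.08) all rose from GFP intensities of at most 20.8. The member that fell was chga.L, which encodes the chromogranin of secretory granules. It went from 61.3, 52.2 and 54.1 with GFP to 34.2, 41.2 and 27.1 with Ptf1a (log2 change -0.53 ± 0.10, adjusted p = 0.0327, adjusted p = 0.158 and 0.0759 without pairs 1 and 3 in turn).

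Genes of the growing axon gave smaller counts. Of 40 measured axon guidance and neural adhesion genes 11 rose and 1 fell, and 1 of these 12 passed in each of the 3 fits leaving out 1 pair. That gene was l1cam.S, an adhesion molecule of axons, which went from 5.4, 4.9 and 5.2 with GFP to 30.4, 25.0 and 22.7 with Ptf1a (0.99 ± 0.07, adjusted p = 0.00238). The neural cadherin cdh2.L, already present in GFP explants, went from 155.3, 102.6 and 131.2 with GFP to 208.9, 188.8 and 186.0 with Ptf1a (0.55 ± 0.09, adjusted p = 0.0647 and 0.0628 without pairs 1 and 2 in turn). A second bright probe set of cdh2.L rose too (log2 change 0.59, adjusted p = 0.0154), while its dim probe sets did not pass (0.08 and 0.00, adjusted p = 0.591 and 0.994). The guidance gene sema3d.S was the member that fell (-0.29 ± 0.06, adjusted p = 0.192, 0.132 and 0.103 without pairs 1, 2 and 3 in turn). Of 9 ion channel and transmitter receptor genes 1 rose and 1 fell. They were cacnb1.S, a subunit of the calcium channel of skeletal muscle (0.74 ± 0.11, adjusted p = 0.0611 without pair 1), and the potassium channel gene kcna4.S (-0.40 ± 0.07, adjusted p = 0.142 and 0.108 without pairs 1 and 2 in turn).

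Transcription factors of neural progenitors and of newly born neurons moved upward, though many were dim. Of 26 measured members 13 rose and 0 fell, and all 26 had a change above 0, with a median of 0.42. The early neuronal factor ebf2.S read 18.7, 12.1 and 21.6 on the GFP arrays and 79.1, 55.0 and 65.2 on the Ptf1a arrays, and the groups did not overlap (log2 change 1.30 ± 0.08, adjusted p = 0.00158). The progenitor factor sox3.S went from 25.8, 12.1 and 28.1 with GFP to 65.2, 39.6 and 72.7 with Ptf1a (0.98 ± 0.06, adjusted p = 0.00136). The neural plate and dorsal factor zic1.S went from 3.6, 4.4 and 7.9 with GFP to 20.1, 15.0 and 28.6 with Ptf1a (0.80 ± 0.08, adjusted p = 0.00614). These 3 genes were the ones in the list that passed in all 3 fits without a pair. The bright progenitor factor sox11.S had 262.9 to 310.4 with GFP and 366.8 to 480.0 with Ptf1a (0.51 ± 0.07, adjusted p = 0.0574 without pair 1). Without the pair term 3 members passed.

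Genes of the Notch pathway, through which progenitors hold each other back from differentiation, rose as well. Of 29 measured members 14 rose and 0 fell, with a median log2 change of 0.40, and 7 of the 14 passed in all 3 fits without a pair. The target gene hes5.2.L, a repressor of neuronal differentiation, read 27.3, 12.7 and 17.1 on the GFP arrays and 71.9, 49.0 and 56.3 on the Ptf1a arrays, so that its lowest Ptf1a value lay above its highest GFP value (log2 change 1.11 ± 0.07, adjusted p = 0.00122). The repressor gene hey1.S went from 93.9, 52.9 and 84.5 with GFP to 178.0, 175.9 and 172.7 with Ptf1a (1.07 ± 0.14, adjusted p = 0.0103), and its second probe set gave a log2 change of 1.30. The feedback inhibitor nrarp.S went from 144.1, 120.1 and 142.9 with GFP to 250.3, 199.8 and 280.0 with Ptf1a (0.77 ± 0.07, adjusted p = 0.00489). Also higher in all fits without a pair were hes4.S (0.87 ± 0.12), hes4.L (0.56 ± 0.07), hes5.1.L (0.87 ± 0.09) and hes5.1.S (0.71 ± 0.07). Among ligands and receptors the changes were smaller, at 0.40 ± 0.06 for the ligand gene jag1.L (adjusted p = 0.0906 and 0.0743 without pairs 1 and 2 in turn) and 0.40 ± 0.07 for the receptor gene notch1.S (adjusted p = 0.0759, 0.105 and 0.0687 without pairs 1, 2 and 3 in turn).

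Glial and neural crest genes rose in part. The radial glia fatty acid-binding protein gene fabp7.L read 48.4, 9.0 and 5.7 on the GFP arrays and 278.9, 176.0 and 145.5 on the Ptf1a arrays. GFP array 1 was higher than the other GFP arrays, and still far below all Ptf1a arrays (log2 change 2.68 ± 0.15, adjusted p = 0.00117). The neural crest and glial factor sox10.L went from 19.8, 23.0 and 35.8 with GFP to 88.6, 49.7 and 140.7 with Ptf1a (1.30 ± 0.17, adjusted p = 0.0115, adjusted p = 0.0551 without pair 1). In all, 3 of 10 glia, retina and lens genes rose and 0 fell, and 10 of 37 neural crest factors rose and 0 fell. Both copies of sox9, which acts in neural crest, glia, cartilage and pancreatic progenitors, rose. The copy sox9.L went from 68.9, 59.0 and 64.9 with GFP to 107.9, 104.5 and 104.4 with Ptf1a (0.60 ± 0.06, adjusted p = 0.0067), and sox9.S changed by 0.58 ± 0.07 (adjusted p = 0.0613 without pair 1). The brightest of these crest genes, id3.S, an inhibitor of helix-loop-helix factors, went from 1306.4, 1123.0 and 1170.3 with GFP to 1649.3, 1523.6 and 1441.3 with Ptf1a (0.35 ± 0.06, adjusted p = 0.142 and 0.111 without pairs 1 and 2 in turn). Without the pair term 2 of the 37 crest genes passed.

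Inflammatory genes gave large rises that differed between pairs. Of 14 measured cytokine, chemokine and innate sensor genes 6 rose and 0 fell. The neutrophil-attracting chemokine gene cxcl8.L read 124.2, 66.5 and 19.0 on the GFP arrays and 734.4, 784.2 and 1167.7 on the Ptf1a arrays. The cytokine gene il1b.S read 63.7, 22.3 and 1.2 on the GFP arrays and 278.0, 309.7 and 641.1 on the Ptf1a arrays. In both genes GFP array 1 was the highest and GFP array 3 the lowest control, while Ptf1a array 3 was the highest of its group, so the change was smallest in pair 1 and largest in pair 3. The log2 change was 3.59 ± 0.46, adjusted p = 0.0109 for cxcl8.L and 3.41 ± 0.58, adjusted p = 0.0237 for il1b.S, and for the latter adjusted p = 0.0806 without pair 2. The gene acod1lb.L, named after the itaconate enzyme of activated macrophages, went from 86.6, 28.9 and 49.1 with GFP to 585.5, 675.9 and 1090.9 with Ptf1a (3.53 ± 0.29, adjusted p = 0.00345). Its further probe sets disagreed. The first rose (log2 change 2.56, adjusted p = 0.0176), and the second did not pass (77.1 with GFP and 82.7 with Ptf1a, log2 change 0.09, adjusted p = 0.416). The gene tlrs5.L went from 167.7, 88.8 and 30.8 with GFP to 695.2, 695.2 and 1132.7 with Ptf1a (3.11 ± 0.47, adjusted p = 0.0603 without pair 2). Complement gene c3.L, at 1694.3 to 2069.3 with GFP and 1880.8 to 2170.1 with Ptf1a, did not pass (adjusted p = 0.526). Over the 6 called genes the median log2 change was 1.92 in pair 1, 2.93 in pair 2 and 4.35 in pair 3. All 6 granulocyte markers fell in the same arrays, and their part in these values was not tested.

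Feedback inhibitors of NF-kB and immediate early genes rose in a block, with smaller and more even changes. Of 62 measured members 35 rose and 0 fell, with a median of 0.48, and 20 of the 35 passed in all 3 fits without a pair. The gene tnfaip3.S, which encodes the ubiquitin-editing inhibitor A20, read 25.6, 16.1 and 8.9 on the GFP arrays and 93.0, 92.6 and 169.2 on the Ptf1a arrays (log2 change 2.01 ± 0.27, adjusted p = 0.0122). The gene of the NF-kB inhibitor itself, nfkbia.S, went from 54.8, 38.3 and 35.6 with GFP to 151.4, 158.2 and 234.2 with Ptf1a (1.73 ± 0.19, adjusted p = 0.00677). In both, the 3 Ptf1a arrays lay above the 3 GFP arrays, and replicate 3 was the highest with Ptf1a and the lowest with GFP. The interferon regulatory factor irf1.L went from 93.0, 78.1 and 85.9 with GFP to 244.2, 277.4 and 342.5 with Ptf1a (1.57 ± 0.11, adjusted p = 0.00225). Subunits of the AP-1 factor rose too, junb.S by 1.67 ± 0.17, junb.L by 1.53 ± 0.13, fos.S by 1.34 ± 0.10 and jun.L by 1.22 ± 0.18. For jun.L adjusted p = 0.0543 without pair 2. A second probe set of junb.S showed no such change (log2 change 0.08, adjusted p = 0.639). The signalling inhibitor socs3.S rose by 1.37 ± 0.09. The largest of the 3 pair values was that of pair 3 in 25 of the 35 genes. Their median log2 change was 0.74, 0.77 and 1.10 in pairs 1, 2 and 3.

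**Figure D2:**
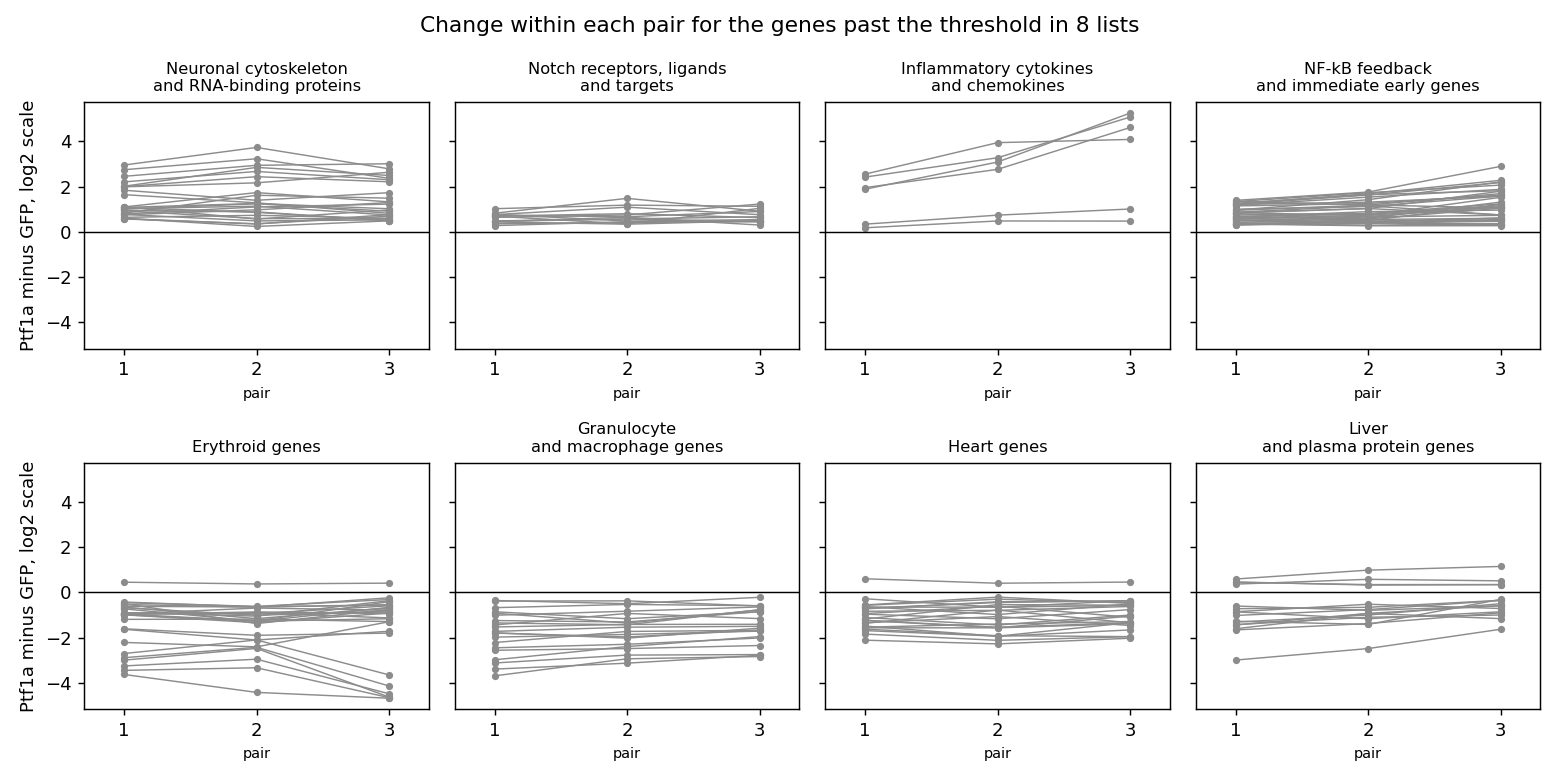
Each line is 1 gene past the threshold in the named list: the horizontal axis gives pairs 1, 2 and 3, which have no order, and the vertical axis the change within the pair, Ptf1a minus GFP, as a difference of log2(intensity + 16). The median changes of neuronal, Notch and heart genes are similar in each pair, though single genes in these lists differ between pairs. Of 6 inflammatory genes 5 change most in pair 3, and several globins fall furthest in pair 3.

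Extracellular proteases split in direction. Of 24 measured matrix metalloproteinases, plasminogen genes and inhibitors 7 rose and 3 fell. The collagenase gene mmp8.L read 89.6, 24.0 and 2.9 on the GFP arrays and 757.8, 593.8 and 1137.2 on the Ptf1a arrays, and GFP array 1 was again the highest control and GFP array 3 the lowest (log2 change 4.25 ± 0.53, adjusted p = 0.0102). The collagenase gene mmp1.S went from 72.4, 52.0 and 57.8 with GFP to 327.0, 420.6 and 647.3 with Ptf1a (2.60 ± 0.21, adjusted p = 0.0034), with GFP arrays close together. In contrast the gelatinase gene mmp9.1.S read 105.3, 123.3 and 165.3 on the GFP arrays and 4.6, 8.9 and 19.6 on the Ptf1a arrays (-2.46 ± 0.07, adjusted p = 0.000502), and mmp13.S fell by 1.57 ± 0.07 (adjusted p = 0.000642), with Ptf1a values of at most 27.4 against at least 71.4. Both falls separated the groups completely. The fall of mmp9.1.S is also counted among the granulocyte and macrophage genes below. The related gene mmp9.2.L, a different locus by its symbol, rose by 1.14 ± 0.08 from GFP intensities of at most 4.8. Matrix genes gave a milder picture, with 10 of 53 measured members higher and 3 lower. The thrombospondin genes, whose secreted proteins act in adhesion and synapse formation, led the rises. The gene thbs4.S read 6.6, 4.8 and 26.6 on the GFP arrays and 100.4, 154.5 and 151.2 on the Ptf1a arrays (2.46 ± 0.19, adjusted p = 0.00279), thbs1.S rose by 1.21 ± 0.08 and thbs3.L by 1.15 ± 0.09. Hyaluronan synthase has2.S (0.70 ± 0.07) and its binding proteoglycan vcan.L (0.69 ± 0.07) rose with them. The fibrillar collagen gene col3a1.S fell (-0.80 ± 0.15, adjusted p = 0.128 and 0.0772 without pairs 2 and 3 in turn).

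Growth arrest genes rose in part and cell cycle genes did not pass. Of 37 growth arrest, p53 and stress genes 8 rose and 0 fell, led by gadd45g.L, a gene active in newly born neurons, which went from 59.6, 44.9 and 49.0 with GFP to 129.7, 122.4 and 193.5 with Ptf1a (1.27 ± 0.14, adjusted p = 0.00746). The antiproliferative gene btg2.S went from 98.0, 79.5 and 118.9 with GFP to 191.3, 195.6 and 209.4 with Ptf1a (0.92 ± 0.09, adjusted p = 0.00586). Of the 8 rises, gadd45g.L, btg2.S, atf3.L and gadd45a.S are also counted among the NF-kB and immediate early genes above. None of 113 cell cycle and DNA replication genes passed in limma's test, where 7 had an unadjusted p under 0.05, and their changes ran from -0.26 to 0.27. Outside this count, which takes the brightest probe set of each gene, a dimmer probe set of top2a.L rose (22.5 with GFP and 36.8 with Ptf1a, log2 change 0.45, adjusted p = 0.014). Ribosomal protein genes, 90 measured, likewise had 0 calls and 0 unadjusted p under 0.05, with changes from -0.09 to 0.14. Proteasome subunit genes had 0 calls of 49 and 3 unadjusted p under 0.05.

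Red blood cell genes fell, the globins by the largest amounts. Of 35 measured erythroid genes 27 fell and 1 rose, with a median log2 change of -0.87, and 21 of the 28 passed in all 3 fits without a pair. The alpha globin gene hba2.L read 883.9, 1274.4 and 397.3 on the GFP arrays and 56.7, 44.1 and 0.1 on the Ptf1a arrays, and the lowest GFP array was still above the highest Ptf1a array by far (log2 change -4.25 ± 0.20, adjusted p = 0.000683). The beta-type globin gene hbe1.L went from 684.4, 1128.7 and 468.5 with GFP to 48.2, 97.6 and 3.2 with Ptf1a (-3.81 ± 0.26, adjusted p = 0.00177), and hba-l5.L went from 1751.1, 2075.5 and 1079.1 with GFP to 169.4, 254.0 and 32.9 with Ptf1a (-3.56 ± 0.28, adjusted p = 0.00292). On both sides array 3 was the lowest for these globins, with Ptf1a array 3 at 0.1 for hba2.L. A bright gene known here only by its identifier, XB5745823.L, shared this order (1864.4, 2418.6 and 1329.4 with GFP and 131.3, 262.4 and 9.0 with Ptf1a, log2 change -4.18 ± 0.47, adjusted p = 0.00783). Enzymes of haem synthesis fell with the globins. Its first erythroid step, alas2.L, went from 64.8, 101.8 and 52.0 with GFP to 10.1, 11.4 and 4.7 with Ptf1a (-1.82 ± 0.10, adjusted p = 0.00117), and urod.L went from 297.8, 409.1 and 253.2 with GFP to 87.0, 98.2 and 61.4 with Ptf1a (-1.77 ± 0.08, adjusted p = 0.000623). The copy alas2.S did not pass (-0.79 ± 0.19, adjusted p = 0.0643). Erythroid factors were lower as well, gfi1b.L by 1.22 ± 0.06, gata1.L by 1.08 ± 0.10 and the blood stem cell factor tal1.S by 0.99 ± 0.07 in log2 change. The anion exchanger of the red cell membrane, slc4a1.L, fell by 0.81 ± 0.07. The gene that rose was nfe2.S (0.42 ± 0.06, adjusted p = 0.109 and 0.0578 without pairs 1 and 2 in turn), read by 6 probe sets that disagree. Of its other 5, one was lower (log2 change -1.16), 2 were higher (0.42 and 0.35) and the remaining ones were not past the threshold (0.03 and 0.14).

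Granulocyte and macrophage genes fell as well. Of 31 measured members 21 fell and 0 rose, with a median of -1.01, and 19 of the 21 passed in all 3 fits without a pair. Myeloperoxidase of neutrophil granules, mpo.L, read 409.1, 539.5 and 439.3 on the GFP arrays and 16.9, 56.6 and 47.7 on the Ptf1a arrays (log2 change -3.15 ± 0.17, adjusted p = 0.00103). The eosinophil peroxidase gene epx.L went from 155.5, 208.1 and 220.6 with GFP to 3.7, 16.8 and 19.2 with Ptf1a (-2.88 ± 0.09, adjusted p = 0.000516), and the granule protease gene prtn3.S went from 189.9, 230.9 and 168.9 with GFP to 3.6, 12.2 and 10.9 with Ptf1a (-3.10 ± 0.12, adjusted p = 0.000581). In each gene no Ptf1a array came near the GFP arrays, and Ptf1a array 1 was the lowest of the 6. The membrane subunits of the NADPH oxidase, which makes superoxide in phagocytes, fell together, cybb.L by 1.87 ± 0.12 and cyba.L by 1.59 ± 0.07. So did the leukocyte actin-bundling gene lcp1.S (-1.81 ± 0.08). The cytokine receptor gene csf3r.L fell by 0.59 ± 0.06 and runx1.L, a factor of blood stem cells, by 0.45 ± 0.07 (adjusted p = 0.0908 and 0.064 without pairs 1 and 2 in turn). Endothelial genes gave a different count, with 2 of 19 higher and 2 lower, a median of 0.06 and 9 unadjusted p under 0.05. The endothelial and epithelial claudin cldn5.L went from 85.5, 56.2 and 48.8 with GFP to 198.9, 116.8 and 130.9 with Ptf1a (1.05 ± 0.08, adjusted p = 0.00253), while its copy cldn5.S did not pass (-0.40 ± 0.09, adjusted p = 0.0515). The receptor tek.S did not pass (-0.30 ± 0.09, adjusted p = 0.0874). The endothelial members that fell were tal1.S, already counted among the erythroid genes, and hhex.L.

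Heart muscle genes fell. Of 48 measured members 23 fell and 1 rose, with a median of -0.36, and 16 of these passed in all 3 fits without a pair. The cardiac myosin heavy chain gene myh6.S read 477.4, 371.0 and 333.3 on the GFP arrays and 98.1, 63.9 and 69.8 on the Ptf1a arrays (log2 change -2.14 ± 0.07, adjusted p = 0.000581), and 3 further probe sets of the gene gave log2 changes of -2.07 to -2.24. Cardiac troponin I, tnni3.S, went from 213.1, 172.0 and 162.2 with GFP to 47.9, 27.3 and 29.9 with Ptf1a (-1.97 ± 0.08, adjusted p = 0.000581), and troponin C, tnnc1.L, went from 159.6, 183.6 and 179.7 with GFP to 41.0, 37.0 and 34.5 with Ptf1a (-1.83 ± 0.09, adjusted p = 0.000684). In each of these genes every Ptf1a array lay far below every GFP array. The atrial light chain genes myl4.L (-1.65 ± 0.12) and mylc2a (-1.28 ± 0.11) fell as well. The upstream factors gave smaller values. Both gata6 copies are among the 23 falls and are also counted among the pancreatic progenitor factors below. The factor tbx5.L fell by 0.50 ± 0.09 (adjusted p = 0.11 and 0.0723 without pairs 1 and 2 in turn), whereas nkx2-5.S did not pass (-0.26 ± 0.15, adjusted p = 0.338), nor did the brighter probe set of the hormone gene nppa.L (-0.37 ± 0.12, adjusted p = 0.125). A dimmer probe set of nppa.L fell (12.9 to 2.0, log2 change -0.66, adjusted p = 0.0305). The other copy of troponin C, tnnc1.S, had 90.1 with GFP and 76.0 with Ptf1a and did not pass (adjusted p = 0.571). The member that rose was bmp4.L (0.49 ± 0.07, adjusted p = 0.0878 without pair 1), a growth factor with roles in many tissues.

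Smooth muscle and mesenchyme genes did not move one way. Of 25 measured members 6 rose and 4 fell. The smooth muscle actin gene acta2.L went from 316.1, 277.1 and 259.9 with GFP to 173.7, 123.9 and 92.6 with Ptf1a (-1.07 ± 0.11, adjusted p = 0.00594). Both copies of foxf1, a factor of the gut mesenchyme, fell, foxf1.L by 0.60 ± 0.08 and foxf1.S by 0.60 ± 0.10, and both calls ended without pair 1 (adjusted p = 0.077 and 0.0945). The intermediate filament gene vim.L, shared by mesenchyme and neural progenitors, went from 803.7, 688.2 and 693.9 with GFP to 1165.9, 1110.3 and 1080.5 with Ptf1a (0.61 ± 0.07, adjusted p = 0.00655).

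Of 46 measured skeletal muscle genes 4 rose and 0 fell, a share below the background of 10.8%. Of the 46 genes 44 had a change above 0, the median was 0.77, and 28 had an unadjusted p under 0.05. In limma without the pair term 0 passed. The fast troponin gene tnnc2.S read 7.7, 11.4 and 221.9 on the GFP arrays and 465.8, 869.1 and 416.8 on the Ptf1a arrays, so GFP array 3 stood between the other GFP arrays and the Ptf1a arrays. Its log2 change was 3.41 ± 0.76, adjusted p = 0.0495, and adjusted p = 0.191 and 0.157 without pairs 1 and 2 in turn. The myosin gene myh8.L went from 5.7, 22.6 and 617.6 with GFP to 1165.6, 1714.2 and 622.1 with Ptf1a and did not pass (3.75 ± 1.10, adjusted p = 0.0977), with GFP array 3 level with Ptf1a array 3. Of its other probe sets one rose (log2 change 2.69, adjusted p = 0.0387) and one did not pass (3.53, adjusted p = 0.0962). The summed skeletal muscle markers ranged from 223.0 to 1727.5 with GFP and from 1670.1 to 4062.4 with Ptf1a. The muscle determination genes myod1.S and myod1.L read at most 20.5 on any array and did not pass (adjusted p = 0.334 and 0.101). The myosin chaperone gene unc45b.S was the member that passed in all fits without a pair (20.5, 9.7 and 34.3 with GFP and 52.9, 39.4 and 70.5 with Ptf1a, log2 change 0.94 ± 0.08, adjusted p = 0.00386).

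Epidermal genes were close to level. Of 52 measured epidermis, cilia and cement gland genes 1 rose and 2 fell, with a median of 0.02 and 14 unadjusted p under 0.05. The larval keratin gene krt12.4.S read 3627.6 to 3921.0 with GFP and 3596.3 to 4108.2 with Ptf1a (adjusted p = 0.706). The keratin gene krt70.L went from 164.0, 143.2 and 214.9 with GFP to 338.5, 440.6 and 443.1 with Ptf1a (1.16 ± 0.12, adjusted p = 0.00615), while its bright copy krt70.S did not pass (0.25 ± 0.10, adjusted p = 0.179). The members that fell were tekt3.L (-0.31 ± 0.07) and tekt4.S (-0.32 ± 0.06), which encode filaments of motile cilia, and neither passed in any of the 3 fits without a pair (for tekt3.L adjusted p = 0.158, 0.13 and 0.126 without pairs 1, 2 and 3 in turn, and for tekt4.S adjusted p = 0.167, 0.0968 and 0.077 without pairs 1, 2 and 3 in turn). Genes of pronephros, notochord and other mesoderm had 9 of 24 higher and 3 lower. The cartilage and notochord collagen gene col2a1.L went from 145.7, 117.9 and 201.7 with GFP to 368.0, 374.9 and 257.9 with Ptf1a (1.04 ± 0.22, adjusted p = 0.179 and 0.137 without pairs 1 and 2 in turn). Of the other notochord and cartilage markers, matn4.L rose (0.884, 1.321 and 0.291 in pairs 1, 2 and 3) and shh.L fell (-0.252, -0.429 and -0.34). The kidney glucose transporter slc5a2.L went from 86.8, 87.1 and 60.2 with GFP to 58.3, 32.2 and 31.7 with Ptf1a (-0.75 ± 0.12, adjusted p = 0.0216), and the podocyte gene nphs1.S did not pass (-0.02 ± 0.06, adjusted p = 0.867).

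Pancreatic progenitor factors changed in both directions. In their list 5 of 30 measured members rose, ptf1a itself among them, 7 fell, and the median was 0.00. The pioneer factor foxa1.L read 251.8, 274.0 and 237.9 on the GFP arrays and 156.8, 172.1 and 128.7 on the Ptf1a arrays, with no overlap between the groups (log2 change -0.69 ± 0.07, adjusted p = 0.00579), and a second probe set of it gave -0.59. Its copy foxa1.S fell by 0.41 ± 0.06 (adjusted p = 0.107 and 0.0646 without pairs 1 and 2 in turn), and the endoderm factor gata6.L by 0.50 ± 0.08 (adjusted p = 0.109 and 0.076 without pairs 1 and 2 in turn). The liver and pancreas bud factor hhex.L went from 52.6, 35.0 and 32.9 with GFP to 22.8, 25.5 and 20.3 with Ptf1a (-0.52 ± 0.11, adjusted p = 0.142, 0.0639 and 0.0681 without pairs 1, 2 and 3 in turn). The paralogue foxa2.L was level, at 43.0 with GFP and 43.6 with Ptf1a (adjusted p = 0.926). Besides ptf1a and the sox9 copies, the members that rose were nkx6-2.L (0.74 ± 0.06) and mnx1.L (0.62 ± 0.10, adjusted p = 0.0794 without pair 2), homeobox genes that neurons use too.

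Genes of mature pancreas were mostly dim at this stage. Of 13 exocrine genes 1 rose and 3 fell. Carboxypeptidase A1, a digestive enzyme, was the one that rose: cpa1.L read 0.9, 2.5 and 4.4 on the GFP arrays and 61.2, 33.9 and 19.1 on the Ptf1a arrays. It was near the floor with GFP, and the Ptf1a arrays spread from 19.1 to 61.2 (log2 change 1.47 ± 0.25, adjusted p = 0.0225, adjusted p = 0.0849 without pair 2). The other digestive enzyme genes did not pass, among them ctrb2.L (8.43 with GFP and 9.0 with Ptf1a) and prss2.L (7.17 and 6.2). The creatine synthesis gene gamt.S, bright on all arrays, went from 2101.4, 2282.7 and 2193.0 with GFP to 1285.1, 1736.0 and 1429.1 with Ptf1a (-0.57 ± 0.08, adjusted p = 0.0811 without pair 1). Among 19 endocrine and prohormone processing genes 8 rose and 2 fell. The prohormone carboxypeptidase gene cpe.L, used by neurons and endocrine cells, went from 21.5, 18.1 and 18.4 with GFP to 53.2, 60.4 and 45.1 with Ptf1a (0.96 ± 0.09, adjusted p = 0.00407). Insulin was lower in Ptf1a explants. The gene ins.L read 31.8, 15.4 and 13.1 on the GFP arrays and 5.5, 6.4 and 2.5 on the Ptf1a arrays, and every Ptf1a array lay below every GFP array (-0.76 ± 0.13, adjusted p = 0.0241, adjusted p = 0.0537 without pair 1). Its copy ins.S did not pass (-0.56 ± 0.17, adjusted p = 0.111).

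Liver and intestinal genes fell in part. Of 47 measured liver and plasma protein genes 12 fell and 4 rose, with a median of -0.28, and 3 of the 47 passed without the pair term. The antiprotease gene serpina1.L read 1299.2, 1415.8 and 659.6 on the GFP arrays and 401.0, 535.9 and 345.8 on the Ptf1a arrays. Array 3 was the lowest of each group, and the pairs agreed in direction (log2 change -1.31 ± 0.14, adjusted p = 0.00692). The hepatic and myeloid factor cebpa.L went from 247.6, 221.1 and 184.7 with GFP to 81.2, 108.7 and 74.0 with Ptf1a (-1.17 ± 0.10, adjusted p = 0.00424), and the plasma protein gene itih2.S fell by 1.17 ± 0.10. The fibrinogen gene fgg.L fell by 1.04 ± 0.19 (adjusted p = 0.0876 without pair 2). The retinol-binding protein gene rbp2.L, an intestinal gene in mammals, read 234.7, 216.6 and 61.6 on the GFP arrays and 15.5, 25.6 and 9.1 on the Ptf1a arrays (-2.37 ± 0.24, adjusted p = 0.00604). The kininogen gene kng1.L moved the other way (214.9, 126.8 and 104.9 with GFP and 333.3, 267.7 and 253.0 with Ptf1a, log2 change 0.91 ± 0.11, adjusted p = 0.0101). Of 25 gut, stomach and lung genes 5 fell and 0 rose. The intestinal fatty acid-binding protein gene fabp2.L read 476.8, 634.2 and 125.6 on the GFP arrays and 125.4, 100.5 and 41.3 on the Ptf1a arrays, where GFP array 3 was nearly as low as Ptf1a array 1 (-1.86 ± 0.21, adjusted p = 0.00765). The abundant embryonic gut gene darmin.L did not pass (-0.29 ± 0.08, adjusted p = 0.0759), while a dimmer probe set of it fell (log2 change -0.88, adjusted p = 0.0106).

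Signalling pathways gave mixed and mostly small values. Of 47 FGF, Hedgehog and retinoic acid genes 12 rose and 4 fell. The retinoic acid degrading enzyme gene cyp26c1.S went from 44.3, 11.3 and 52.5 with GFP to 244.3, 95.0 and 115.0 with Ptf1a (1.69 ± 0.23, adjusted p = 0.0531 and 0.0578 without pairs 1 and 2 in turn), and 2 further probe sets of it also rose (0.92 and 1.00). The retinoic acid binding protein gene crabp2.L went from 184.3, 111.7 and 189.9 with GFP to 325.0, 307.9 and 366.2 with Ptf1a (1.00 ± 0.12, adjusted p = 0.00871). The retinaldehyde dehydrogenase gene aldh1a1.L fell (-0.71 ± 0.10). Related genes moved in the opposite direction. The dehydrogenase gene aldh1a2.L rose (0.353, 0.495 and 0.512 in pairs 1, 2 and 3), though most of its further probe sets did not pass. Both rdh10 copies rose too. The degrading enzyme gene cyp26a1.S fell (-0.36 ± 0.06, adjusted p = 0.143 and 0.102 without pairs 1 and 2 in turn), as did dhrs3.L (-0.56 ± 0.08, adjusted p = 0.0672 without pair 1). The FGF feedback phosphatase gene dusp6.S went from 106.9, 69.7 and 106.7 with GFP to 172.7, 110.4 and 176.5 with Ptf1a (0.61 ± 0.06, adjusted p = 0.00577). Of 50 BMP and TGF-beta genes 8 rose and 0 fell, with bmp2.S at 0.83 ± 0.10 as the member that passed in all fits without a pair. Of 55 Wnt pathway genes 5 rose and 2 fell (12.7%), near the background share of 10.8%. The secreted Wnt inhibitor genes went in opposite directions, wif1.S up by 0.64 ± 0.07 and sfrp5.S down by 0.70 ± 0.07 in log2 change. For wif1.S this rests on 1 of 3 probe sets, since the dimmer ones did not pass (0.02 and 0.05, adjusted p = 0.923 and 0.765). Of 38 Hox and axial patterning genes 2 rose and 3 fell, which is near the background share, with otx1.L (0.72 ± 0.10, adjusted p = 0.067 without pair 1) and hoxd8.L (-0.62 ± 0.09, adjusted p = 0.0859 and 0.0655 without pairs 1 and 2 in turn) the largest in each direction.

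In the metabolic lists falls outnumbered rises, though for respiratory chain and ER folding genes the share called was below the background of 10.8%. Of 87 respiratory chain genes 6 fell and 0 rose, 40 had an unadjusted p under 0.05 and 2 had a change above 0, with a median of -0.16. The 6 falls are 6.9% of the list, near the 5.42% lower over all genes. None of the 6 passed in each of the 3 fits leaving out 1 pair, and 0 of the 87 passed without the pair term in limma. The largest was uqcrc2.S, a core protein of complex III (251.9, 302.3 and 216.3 with GFP and 203.2, 176.5 and 147.4 with Ptf1a, log2 change -0.51 ± 0.10, adjusted p = 0.0306, adjusted p = 0.0503, 0.0945 and 0.0653 without pairs 1, 2 and 3 in turn). Of 64 glycolysis and citric acid cycle genes 4 rose and 9 fell. The glycolytic activator gene pfkfb3.S went from 25.3, 22.7 and 17.4 with GFP to 66.0, 87.8 and 127.4 with Ptf1a (1.50 ± 0.20, adjusted p = 0.0116, adjusted p = 0.0501 without pair 2). The muscle and adipose hexokinase gene hk2.L fell (29.7, 39.9 and 35.4 with GFP and 4.4, 9.8 and 7.0 with Ptf1a, log2 change -1.15 ± 0.06, adjusted p = 0.000984), though its second probe set did not pass (log2 change -0.24, adjusted p = 0.173). Of 35 cholesterol and lipid genes 6 fell and 0 rose. The largest of these falls was that of hmgcs1.L of the sterol pathway (-0.79 ± 0.10, adjusted p = 0.0609 without pair 1), whose second probe set did not pass (log2 change -0.50, adjusted p = 0.0968). Of 86 genes of ER folding 3 fell and 0 rose (3.5%), and of 47 cell junction genes 6 rose and 2 fell.

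**Figure D3:**
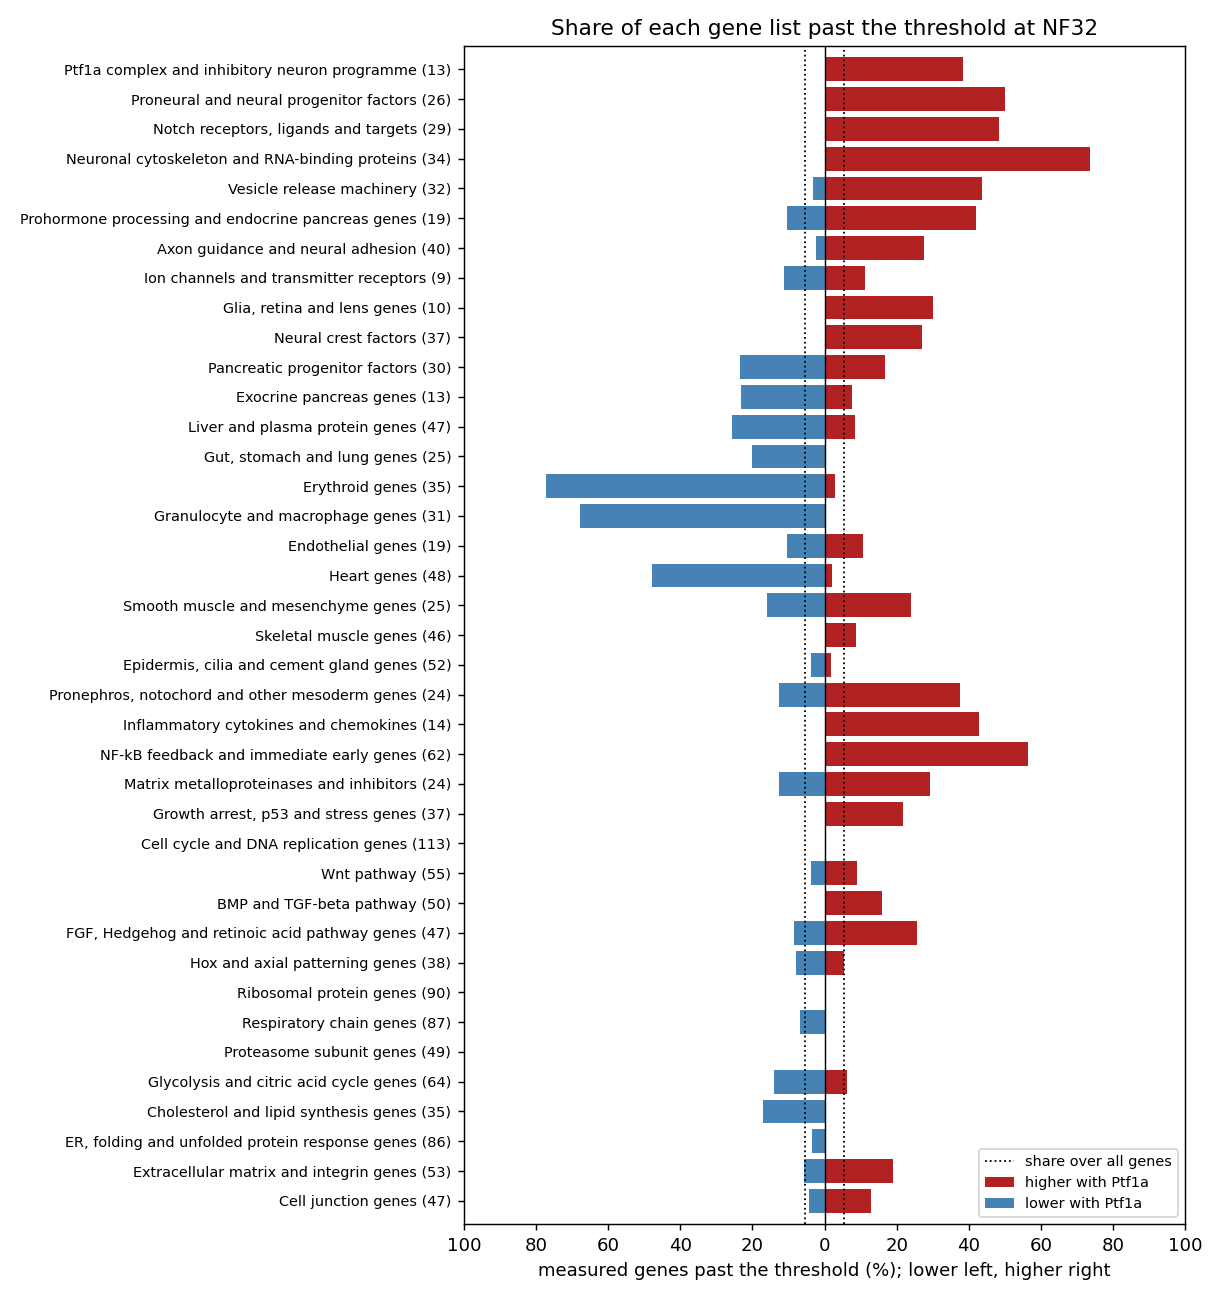
Bars give the percentage of measured genes of each list past the threshold at NF32, higher with Ptf1a to the right in red and lower to the left in blue, with the number measured in brackets. Dotted lines mark the shares over all genes, 5.35% higher and 5.42% lower, and the neuronal, NF-kB, erythroid and granulocyte bars reach furthest beyond them.

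The next 4 genes were among the brightest, the top 5% by mean, as were hba-l5.L and XB5745823.L above. The gene olfm4.L, an olfactomedin of gut epithelium and neutrophils in mammals, read 748.6, 473.1 and 139.2 on the GFP arrays and 1943.7, 2081.9 and 2642.3 on the Ptf1a arrays. As in the inflammatory genes, GFP array 1 was the highest control and GFP array 3 the lowest (log2 change 2.52 ± 0.48, adjusted p = 0.0334, adjusted p = 0.091 without pair 2). The heparan sulphate proteoglycan gene sdc4.L went from 410.1, 386.4 and 370.3 with GFP to 731.0, 753.9 and 936.7 with Ptf1a (1.02 ± 0.10, adjusted p = 0.00615). The mitochondrial creatine kinase gene ckmt1b.S went from 2086.6, 2346.7 and 2023.1 with GFP to 1030.0, 1519.1 and 1561.1 with Ptf1a (-0.67 ± 0.12, adjusted p = 0.0906 and 0.0991 without pairs 1 and 2 in turn). The glucose-6-phosphatase gene g6pc1.3.L went from 489.1, 415.7 and 585.0 with GFP to 760.7, 642.5 and 840.3 with Ptf1a (0.58 ± 0.06, adjusted p = 0.00679, adjusted p = 0.0507 without pair 1). The largest rise among the named genes was that of phyhdlb.L, which read 39.3, 19.0 and 35.2 on the GFP arrays and 704.7, 830.0 and 1449.3 on the Ptf1a arrays (4.38 ± 0.21, adjusted p = 0.000749). Other large rises outside the lists were those of satpb.L (67.5, 21.7 and 7.9 with GFP and 362.7, 317.4 and 565.9 with Ptf1a, log2 change 3.31 ± 0.42, adjusted p = 0.0104) and the cholesterol 25-hydroxylase gene ch25h.L (32.2, 8.6 and 1.7 with GFP and 151.3, 146.1 and 209.5 with Ptf1a, log2 change 2.73 ± 0.32, adjusted p = 0.00874). Both had the order of GFP arrays seen in il1b.S. Of probe sets with no symbol, 848 of 10438 passed.

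Where both subgenome copies of a gene passed, their probe sets mostly moved alike. Of 1594 genes measured on both copies, 280 had at least 1 copy past the threshold and 94 had both. Of the 280, 256 had changes of the same sign in both copies. Of the 94, 93 moved the same way. The exception was the actin regulator gene evl, named after its values were seen, with log2 changes of 0.81 for .L and -0.50 for .S. Whether these probe sets tell the copies apart was not tested, so the 2 copies may not be separate readings.

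The series holds a second comparison of the same groups at stage NF36, 8 hours later, with 4 other pairs, and 22251 probe sets had values at both stages. The scaling of the arrays is not given. Values of each stage were taken as scaled apart, so changes and not levels were compared. The series text names an earlier GeneChip for NF36 than for NF32, whereas the values of both stages carry identifiers of the same chip, so the chip behind the NF36 values is unsettled and stage and chip may differ together in each difference below. At NF36 5283 of these probe sets passed (23.7%), against 2095 at NF32. The NF36 test had 4 pairs and the NF32 test 3, so these counts and the shares of calls in common do not come from equal tests. Of the NF32 calls 60.3% were called at NF36 too, and of the NF36 calls 23.9% were called at NF32. Of the 1263 shared calls 1213 went the same way. The change itself differed between stages for 1217 probe sets (5.47%), higher at NF32 for 392 and lower for 825. Probe sets that rose at NF32 had a median log2 change of 0.53 there and 0.28 at NF36, and those that fell had -0.48 and -0.29. These medians describe probe sets chosen by their NF32 change.

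The largest difference with a greater rise at NF32 was that of the radial glia gene fabp7.L, with log2 changes of 2.68 ± 0.15 and 0.47 ± 0.27 (difference 2.21 ± 0.39, adjusted p = 0.0164). It passed under 9 of 14 alternatives. The genes prph.S, tubb3.L, thbs4.S and elavl4.L followed. The log2 change of tubb3.L was 2.45 ± 0.15 at NF32 and 0.42 ± 0.09 at NF36 (difference 2.03 ± 0.20, adjusted p = 0.00302). For elavl4.L it was 2.78 ± 0.16 and 0.82 ± 0.14 (difference 1.96 ± 0.25, adjusted p = 0.00563), and for prph.S 3.16 ± 0.18 and 1.12 ± 0.14 (difference 2.04 ± 0.26, adjusted p = 0.0058). The genes tubb3.L, elavl4.L, prph.S, thbs4.S and both dpysl3 copies kept the difference under all 14 alternatives tried. Of the 8 largest differences in the other direction 6 were those of heart genes. For myh6.S the NF32 change was -2.14 ± 0.07, and at NF36 the 4 pairs gave 0.55, 0.32, 0.65 and 3.29, a change that did not itself pass (1.20 ± 0.48, adjusted p = 0.119). The difference was -3.34 ± 0.63 (adjusted p = 0.0214). NF36 pair 4 stood far above the other NF36 pairs, and without it the difference was -2.65 (adjusted p = 0.000219). The gene tnnc1.L gave the same pattern, with 0.64, 0.43, 0.65 and 2.80 in the NF36 pairs and a difference of -2.40 without pair 4 (adjusted p = 0.000219).

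**Figure D4:**
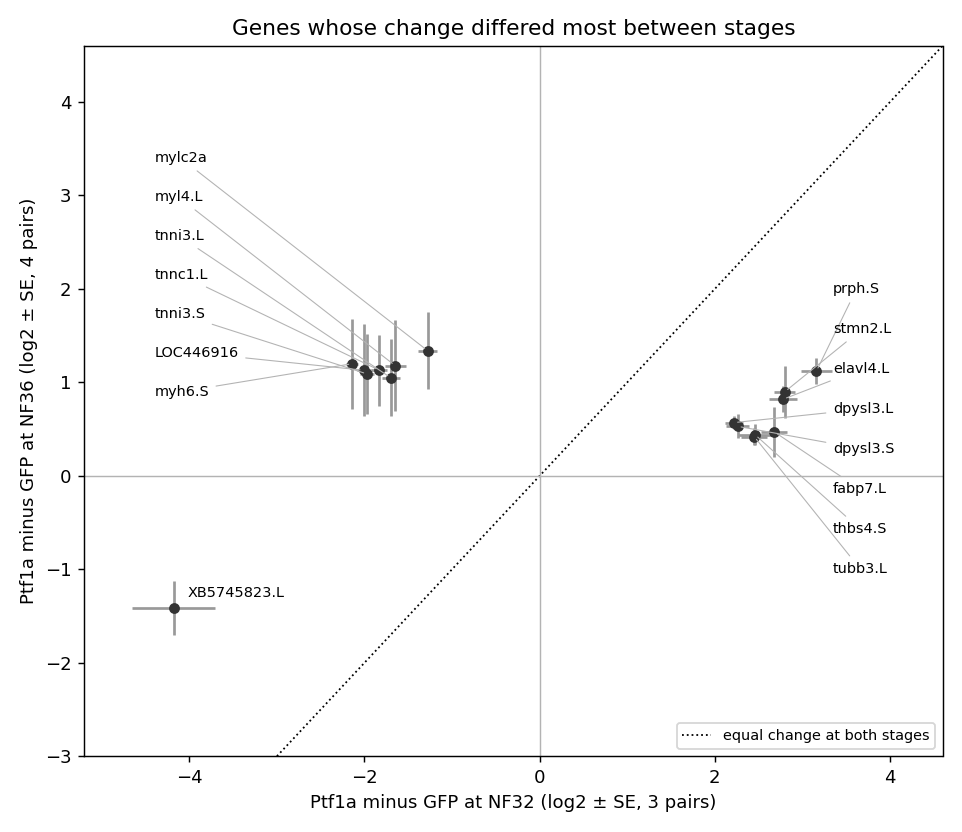
Each point is 1 of the 16 genes with the largest called differences between stages: the horizontal axis is the log2 change at NF32, the vertical axis that at NF36, bars are SE, and the dotted line marks equal change. Neuronal genes, fabp7.L and thbs4.S lie below the line on the right, heart genes lie above 0 at NF36 with wide bars, and XB5745823.L fell at both stages.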

How the data were processed

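Total RNA of pooled Xenopus laevis explants was measured on Affymetrix 3' expression arrays. The values deposited by the authors are linear probe set intensity values, 1 column per array. PLIER is named in the submitters' processing notes, without version or role. How arrays were scaled, whether probe sets were filtered and which genome build was used: not given in the sources used here. Across NF32, the 6 arrays had means of 140.19 to 140.36 and medians of 49.2 to 50.6, and 13.0% to 15.1% of probe sets read below 16, so the number of arrays and the signal of dim probe sets limit precision.

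From these, log2(intensity + 16) was taken with no further normalization and tested with limma 3.58.1 in R 4.3.3 (lmFit, eBayes with default settings, 2-sided), with the replicate number as a block. The series text says that control and Ptf1a samples of a preparation came from the same batch of embryos. That equal replicate numbers mark the same preparation was assumed. As a check, the departures of same-numbered arrays from their group means correlated at 0.711, 0.297 and 0.416 across probe sets, against -0.525 to 0.257 for other combinations. The departures within a group sum to 0 for each probe set, so part of this contrast is built in. For Ptf1a array 2 the check hardly separates GFP array 2 (0.297) from GFP array 3 (0.257). Adjusted p is Benjamini-Hochberg over all probe sets. The stage difference is a contrast in 1 limma fit of all 14 arrays with a block per pair and stage. The script was tested on simulated data.

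Gene symbols come from the platform annotation. Of 12186 probe sets with 1 symbol, 12113 matched RefSeq by gene identifier and 0 were renamed, 231 had several symbols and 10438 none. The 39 gene lists and the comparison itself were chosen with earlier results of these data known. The ribosomal list was corrected for kinase genes after values were seen.

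Named genes followed a rule: ptf1a, the 20 largest rises and falls past the threshold with all pairs in one direction and the higher mean above the median of all probe sets, the 10 largest rises and falls among the top 5 percent by mean, up to 5 per direction in each list (or the smallest p where none passed), the cell type markers and the 8 largest stage differences per direction. Not every gene the rule names is described. Outside the rule, and chosen after their values were seen, are aldh1a2.L, c3.L, cldn5.S, csf3r.L, ctrb2.L, cyba.L, darmin.L, fos.S, gap43.S, gfi1b.L, has2.S, hes4.L, hes5.1.S, id3.S, ins.S, jag1.L, jun.L, junb.L, myh8.L, nefm.L, notch1.S, nova1.L, prss2.L, rbpj.S, rdh10.L, rdh10.S, runx1.L, socs3.S, sox11.S, tbx5.L, tcf12.S, tcf3.L, tubb2b.S, urod.L and vcan.L, with evl. So are the dimmer probe sets of top2a.L, ambp.L, apoe.L, rbp4.L, epb41.L, sesn1.L, ccng1.S, dpysl4.L, vamp2.L and fn1.S. The genes under Other observations, apart from mtfp1.L, are outside the rule too.

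Alternatives were no replicate block, median centring, quantile normalization, offsets of 1 and 64, dropping probe sets dimmer than the 40th percentile, eBayes with trend and robust settings, a 2-fold minimum, and leaving out each pair, with each NF36 pair added after the data were seen.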

Additional observations from a re-analysis of the deposited data

Results flagged for a closer look

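The change between Ptf1a and GFP explants differed between NF32 and NF36 in 16 genes, those with the largest called differences per direction among genes past the threshold at NF32. The difference is the log2 change at NF32 minus that at NF36, from limma's contrast. It was above 0 for fabp7.L (2.21), prph.S (2.04), tubb3.L (2.03), thbs4.S (2.02), elavl4.L (1.96), stmn2.L (1.90), dpysl3.S (1.73) and dpysl3.L (1.64), which had risen more at NF32. It was below 0 for the heart genes myh6.S (-3.34), tnni3.S (-3.06), tnnc1.L (-2.96), myl4.L (-2.83), tnni3.L (-2.74) and mylc2a (-2.63), for LOC446916 (-3.14), which the annotation leaves unnamed, and for XB5745823.L (-2.78). Of 14 alternatives, 14 kept the call for prph.S, tubb3.L, thbs4.S, elavl4.L and both dpysl3 copies, 13 for tnnc1.L, 10 for myh6.S and tnni3.S, 9 for fabp7.L and tnni3.L, 7 for mylc2a and LOC446916, and 5 for stmn2.L, myl4.L and XB5745823.L. The sign was the same in all of them. For 7 genes (the 6 heart genes and LOC446916) the NF36 change was above 0 in all 4 pairs, from 0.13 to 0.97 in pairs 1 to 3 and from 2.80 to 3.31 in pair 4, and did not pass at NF36. Without NF36 pair 4 their differences were -2.04 to -2.65 and passed (adjusted p = 0.000219 to 0.00217). Without that pair stmn2.L no longer passed (1.69, adjusted p = 0.0649). Cardiac markers summed to 1044.3 to 1230.6 on the NF32 GFP arrays and 297.6 to 394.6 on the NF32 Ptf1a arrays, and the part of heart tissue in the explants was not tested.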

How the results depend on the processing

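The ptf1a rise of 3.45 was 2.25 to 4.46 over the 10 alternatives and passed in each. Of probe sets higher and lower at NF32, 1149 and 958, there were 449 and 274 with no replicate block, 521 and 607 without dim probe sets, and 161 and 128 with a 2-fold minimum. With an offset of 1, 619 were lower. Leaving out a pair gave 394 to 1111 higher and 298 to 755 lower. The other settings stayed within 1.5 times. Stage differences, 392 higher and 825 lower at NF32, were 76 and 97 with no replicate block, 120 higher without dim probe sets and 522 lower with an offset of 64. Leaving out an NF32 pair gave 222 to 331 higher and 444 to 548 lower. Leaving out an NF36 pair, added after the data were seen, gave 179 to 382 higher and 455 to 859 lower. Of 226 named genes past the threshold, none reversed where tested. Calls were lost by 108 with no replicate block, 99, 83 and 30 without pairs 1, 2 and 3, 51 and 37 with offsets of 1 and 64, 24 with trend and robust settings, 14 with quantile normalization, 9 of the 173 still tested without dim probe sets, and 0 with median centring. Fits without a pair rest on 2 pairs. In 425 rises the GFP mean was under 16, where the offset sets the size of the change. The cause of the other shifts was not tested.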

Other observations

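Cement gland genes were high on 1 array. The secreted gland protein gene ag1.S read 97.8, 81.5 and 48.2 on the GFP arrays and 390.9, 52.0 and 55.0 on the Ptf1a arrays, and xa-1.L read 2.1, 2.2 and 37.5 with GFP and 397.5, 0.0 and 15.1 with Ptf1a. The related genes ag1.L, agr2.L and agr2.S also had their highest value on Ptf1a array 1, at 406.1, 632.5 and 284.1. None of these 5 genes passed (adjusted p = 0.284 to 0.734).

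Some probe sets set 1 pair apart from the other pairs in both groups. One probe set of the mitochondrial fission gene mtfp1.L read 9768.7 and 4649.2 in pair 1 and 52.5 to 139.5 on the other 4 arrays, while its other 2 probe sets read 32.3 to 147.0 and the same probe set read 46.6 to 104.8 at NF36. It is counted among the falls (log2 change -0.85, adjusted p = 0.00615). The glutathione transferase gene gstp1.L read 113.9 and 161.0 in pair 1 and at most 0.1 elsewhere. The chromatin gene chtop.S read 5.6 and 4.5 in pair 1 and 243.3 to 377.7 elsewhere. In pair 3, zbtb33.S read 7.4 and 13.5 against 420.0 to 1445.4, and klhl24.S read 36.3 and 93.4 against 988.8 to 1531.5. None of these last 4 genes passed (adjusted p = 0.0926 to 0.904).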
